A study of Mus musculus with 68 samples.

Results

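The genes Ifitm1, Ifitm2 and Ifitm3, which encode interferon-induced transmembrane proteins, were followed through mouse oocytes and embryos that carried or lacked Ezhip. All 3 genes were found by name in each of the 8 expression tables, which together hold 24941 gene names. The family was picked because Ifitm1 was lower in mKO than in WT extraembryonic ectoderm at E6.5, so that contrast is described here without a test.

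The study sequenced polyA RNA with Smart-seq2, which copies whole transcripts from very little material, to ask what Ezhip does while H3K27me3 is handed from oocyte to embryo. Ezhip lies on the X chromosome and encodes an inhibitor of PRC2, the enzyme complex behind H3K27me3. Fully grown oocytes (labelled FGO) were WT (2 libraries), Ezhip Het (2) or Ezhip KO (3). Embryos were WT, mHet or mKO for Ezhip. There were 2 libraries of each genotype in 1-cell embryos at stage PN5, in late 2-cell embryos, in a first set of E3.5 blastocysts, in E6.5 epiblast and in E6.5 extraembryonic ectoderm, and 5 of each in a second set of E3.5 blastocysts. The 8-cell stage had 2 WT, 1 mHet and 3 mKO libraries, and E4.25 had 4 WT, 4 mKO and 1 mHet sample after 2 identical libraries were counted as 1. The labels give no strain, age of the females or sex and do not spell out mHet or mKO. A protocol text attached to every sample describes the EZH2 inhibitor GSK343, but no sample here is labelled as treated with it. They also do not say whether libraries came from separate animals or pools, so each p-value measures only the spread between libraries, which may be technical.

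IFITM proteins are small membrane proteins that hinder the fusion of viral envelopes with cell membranes. In placental trophoblast they can also block the syncytin-driven cell fusion that builds the syncytiotrophoblast. Ifitm3, once called Fragilis, and Ifitm1 are classical marks of the epiblast cells that become primordial germ cells, and the family sits in one gene cluster whose members answer to interferon to different degrees.

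Values are FPKM, reads per gene scaled to gene length and library size. Ezhip, listed as AU022751, was at 15.7 to 546 FPKM in WT oocytes, 1-cell and late 2-cell embryos, and at 0 to 0.933 FPKM in the KO or mKO libraries of those stages. Between 4940 and 9804 genes reached 1 FPKM in a library. The ribosomal RNA precursor Rn45s took 0.209% to 69.5% of a library's summed FPKM, with the highest shares in the second E3.5 set and at E4.25. One E4.25 library, WT replicate 3, stands apart from all others and is described with its stage.

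The 250 bases before the RefSeq start of each gene on mouse build GRCm38.p6 are shown because the 3 genes, although neighbours, differed in stage and tissue. All 3 had an entry in the RefSeq promoter table. The windows are chr7:140967826-140968075 (+ strand) for Ifitm1, chr7:140955962-140956211 (- strand) for Ifitm2 and chr7:141010745-141010994 (- strand) for Ifitm3. Capitals mark the core of the interferon-stimulated response element (GAAA, any 2 bases, GAAA), searched on both strands.
Ifitm1: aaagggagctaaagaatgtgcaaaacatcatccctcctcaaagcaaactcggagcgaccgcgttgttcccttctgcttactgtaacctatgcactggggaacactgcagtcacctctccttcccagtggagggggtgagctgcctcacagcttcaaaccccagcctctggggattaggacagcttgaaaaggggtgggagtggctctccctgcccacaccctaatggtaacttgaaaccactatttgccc
Ifitm2: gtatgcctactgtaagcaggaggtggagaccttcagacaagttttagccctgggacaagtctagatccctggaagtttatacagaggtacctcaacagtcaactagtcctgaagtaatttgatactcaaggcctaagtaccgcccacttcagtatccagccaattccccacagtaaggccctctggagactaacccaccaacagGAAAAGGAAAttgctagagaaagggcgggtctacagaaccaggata
Ifitm3: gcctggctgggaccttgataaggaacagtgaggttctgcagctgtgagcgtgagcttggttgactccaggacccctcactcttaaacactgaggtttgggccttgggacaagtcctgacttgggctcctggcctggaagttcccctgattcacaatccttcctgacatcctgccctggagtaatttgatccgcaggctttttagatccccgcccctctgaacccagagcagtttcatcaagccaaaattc

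Ifitm2 held 1 match, GAAAAGGAAA, at positions -46 to -37 relative to the start. Searched up to 50 bases past the start, Ifitm3 held 2 matches at positions 3 to 12 and 20 to 29, which fall in the 27-base stretch chr7:141010716-141010742 (- strand) printed here with the matches in capitals.
Ifitm3 from position 3: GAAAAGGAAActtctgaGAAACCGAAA
The same letters were absent from the Ifitm1 window of 300 bases. Of 32544 mouse promoters of that length, 3.45% held the core at least once. A second interferon motif, TTCNNNGAA, was found in 8.33% of promoters and once here, in Ifitm3 at positions 14 to 22, where it overlaps the second core. The windows held 4, 2 and 3 CpG sites before the start in Ifitm1, Ifitm2 and Ifitm3, against a median of 6 over all promoters. These matches are descriptions of sequence and not measured binding sites.

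The make-up of the family differed between oocytes and later embryos. In oocytes and 1-cell embryos Ifitm3 was the leading member of the 3, at a mean of 38.1 ± 21.7 FPKM (SD, n = 7) and 94.0 ± 12.5 FPKM (SD, n = 6). It fell short there of Ifitm6, a neighbour in the cluster outside the family set described here, which stood at 185 ± 72.4 and 326 ± 70.4 FPKM. From the 8-cell stage on Ifitm2 had the highest mean of the 3, except at E4.25, where 1 WT library put the mean of Ifitm3 at 23.4 ± 63.7 FPKM (SD, n = 9) against 12.6 for Ifitm2. Tables were normalized separately, so levels at different stages are given side by side and were not tested.

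**Figure D1:**
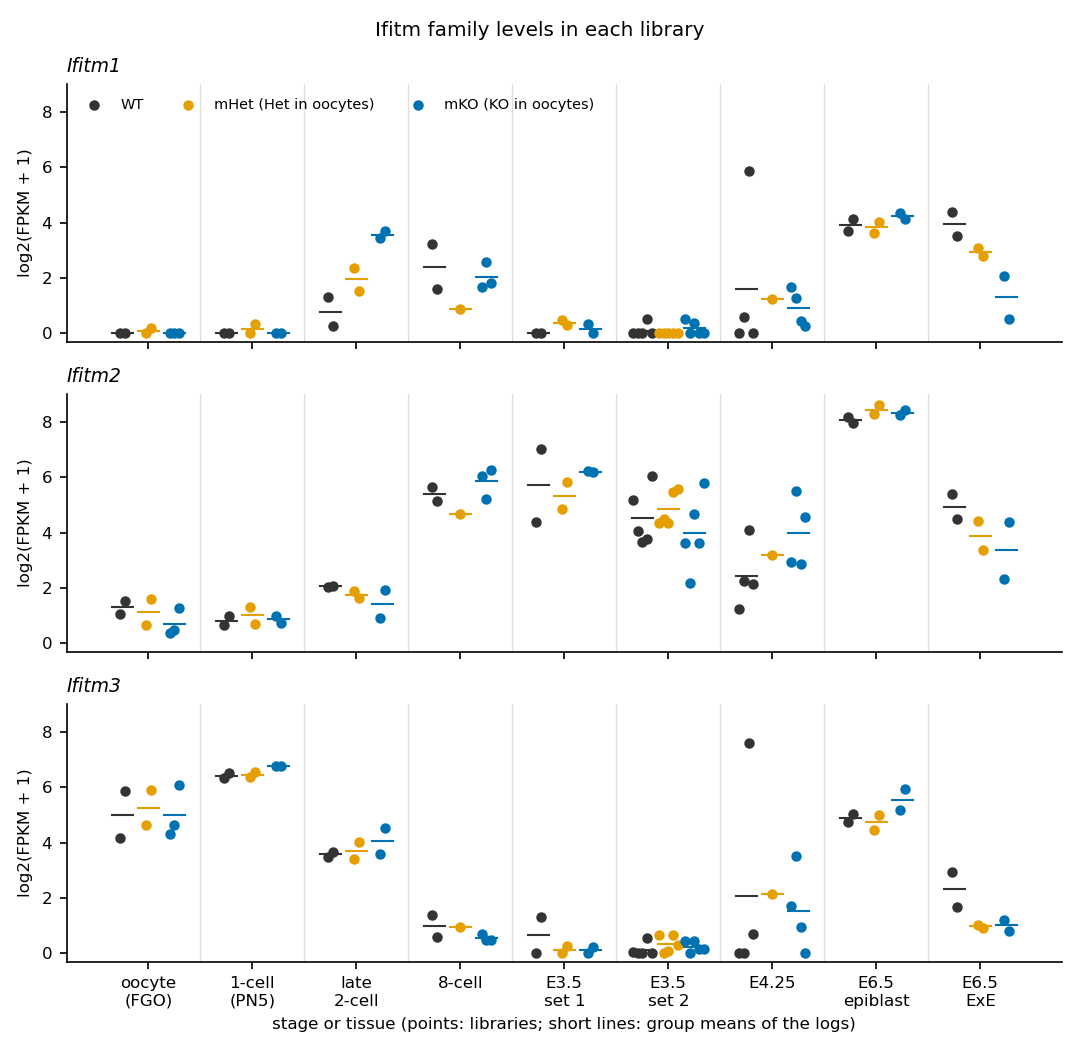
Level of Ifitm1, Ifitm2 and Ifitm3 in each library as log2(FPKM + 1), by stage or tissue along the x axis and by genotype in colour, with 1 point per library and short lines for group means of the logs. Ifitm3 is high up to the 1-cell stage, Ifitm2 is high from the 8-cell stage, and Ifitm1 is above 1 FPKM mainly in late 2-cell, 8-cell and E6.5 samples.

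Ifitm2 had means of 1.10 ± 0.710 FPKM in oocytes (SD, n = 7), 0.894 ± 0.359 in 1-cell (n = 6) and 2.47 ± 0.872 in late 2-cell embryos (n = 6). It stood at 47.9 ± 20.1 FPKM in 8-cell embryos (SD, n = 6), 63.0 ± 39.2 in the first E3.5 set (n = 6) and 26.5 ± 18.3 in the second (n = 15). The order of levels was then epiblast at 316 ± 48.5 FPKM (SD, n = 6), followed by the E3.5 sets and 8-cell embryos, extraembryonic ectoderm at 19.3 ± 12.7 (n = 6) and E4.25 at 12.6 ± 13.9 (n = 9). Of these only the epiblast libraries, at 249 to 390 FPKM, lay above every library of the next stage in the order. The 8-cell, E3.5, E4.25 and extraembryonic ectoderm ranges overlapped.

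Ifitm1 was listed at 0 in 6 of 7 oocyte and 5 of 6 1-cell libraries. Its means were 15.2 ± 3.03 FPKM in epiblast (SD, n = 6), 7.87 ± 6.78 in extraembryonic ectoderm (n = 6), 7.12 ± 19.1 at E4.25 (n = 9), 4.93 ± 4.84 in late 2-cell (n = 6) and 3.48 ± 2.73 in 8-cell embryos (n = 6). Neighbouring stages in this order overlapped, and the E4.25 mean rests on 1 library of 58.0 FPKM beside a median of 0.501. Both E3.5 sets stayed at or under 0.425 FPKM. Ifitm3 had its lowest values in the same period, at a median of 0.570 FPKM in 8-cell embryos and 0.0848 and 0.112 in the E3.5 sets, and then reached 34.4 ± 13.7 FPKM in epiblast and 2.17 ± 2.30 in extraembryonic ectoderm (SD, n = 6 each).

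Of the summed FPKM of all Ifitm genes in a library, Ifitm6 took a median of 82.1% in oocytes and 75.1% in 1-cell embryos. In late 2-cell embryos Ifitm3 took 40.2% and Ifitm6 37.4%. Ifitm2 then took 92.1% in 8-cell embryos, 98.7% and 99.0% in the E3.5 sets, 79.2% at E4.25 (but 5.97% in WT replicate 3), 86.4% in epiblast and 61.8% in extraembryonic ectoderm, where Ifitm1 reached 30.0%. Ifitm5, Ifitm7 and Ifitm10, the other family names in the tables, had no library above 1.16 FPKM. These shares carry an uncertainty of sequence. Of the 50-base stretches of Ifitm2 transcripts, 48.5% also occur in a transcript of another gene, chiefly predicted genes such as Gm45717 (36.1%), against 5.02% for Ifitm1 and 10.0% for Ifitm3. The sources used here do not say how reads with several matches were counted.

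**Figure D2:**
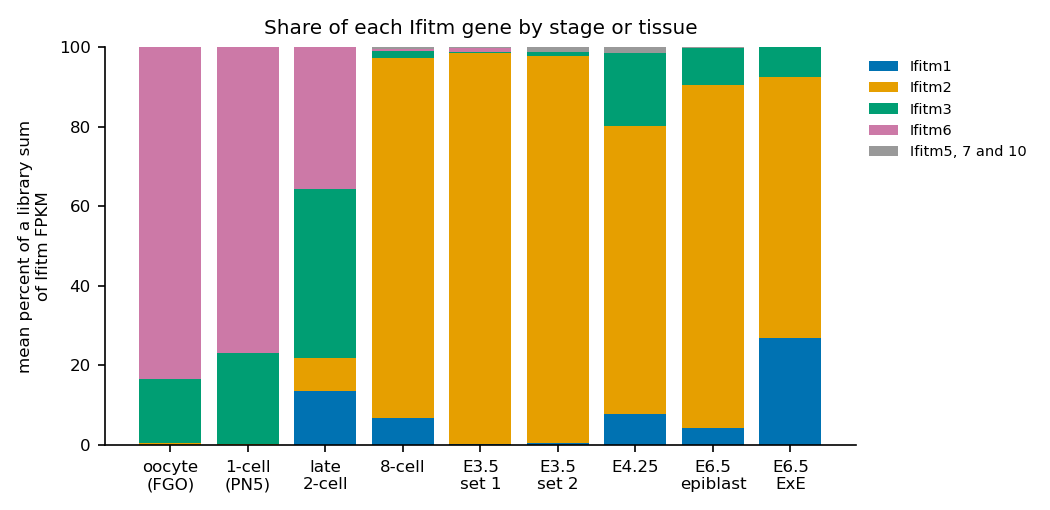
Share of each Ifitm gene in the summed Ifitm FPKM of a library (y axis, percent, averaged over the libraries of a stage or tissue), with stages along the x axis. Ifitm6 and Ifitm3 fill the bars of oocytes and 1-cell embryos, Ifitm2 those from the 8-cell stage on, and Ifitm1 is widest in extraembryonic ectoderm.

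A gene entered the tests of a table when it reached 1 FPKM in at least 2 of its libraries, and group differences were fitted with limma on log2(FPKM + 1), a scale that understates the change of low genes. Ifitm2 passed this filter in 8 of 8 tables, Ifitm3 in 5 and Ifitm1 in 4. Over 15 comparisons of a genotype with WT, 32 member tests were made. Of these 0 passed an adjusted p of 0.05 (limma, Benjamini-Hochberg over all genes of the table), and 4 had an unadjusted p under 0.05. They were Ifitm1 in late 2-cell mKO and mHet, Ifitm2 in E4.25 mKO and Ifitm3 in mHet extraembryonic ectoderm. Of all genes, 780 and 303 of 10322, 3387 of 9550 and 650 of 11028 were under it there. The Ifitm3 comparison shares the WT libraries used in the choice. In the tissue comparison 2 of 3 members passed the adjusted threshold, beside 14.9% of all genes.

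**Figure D3:**
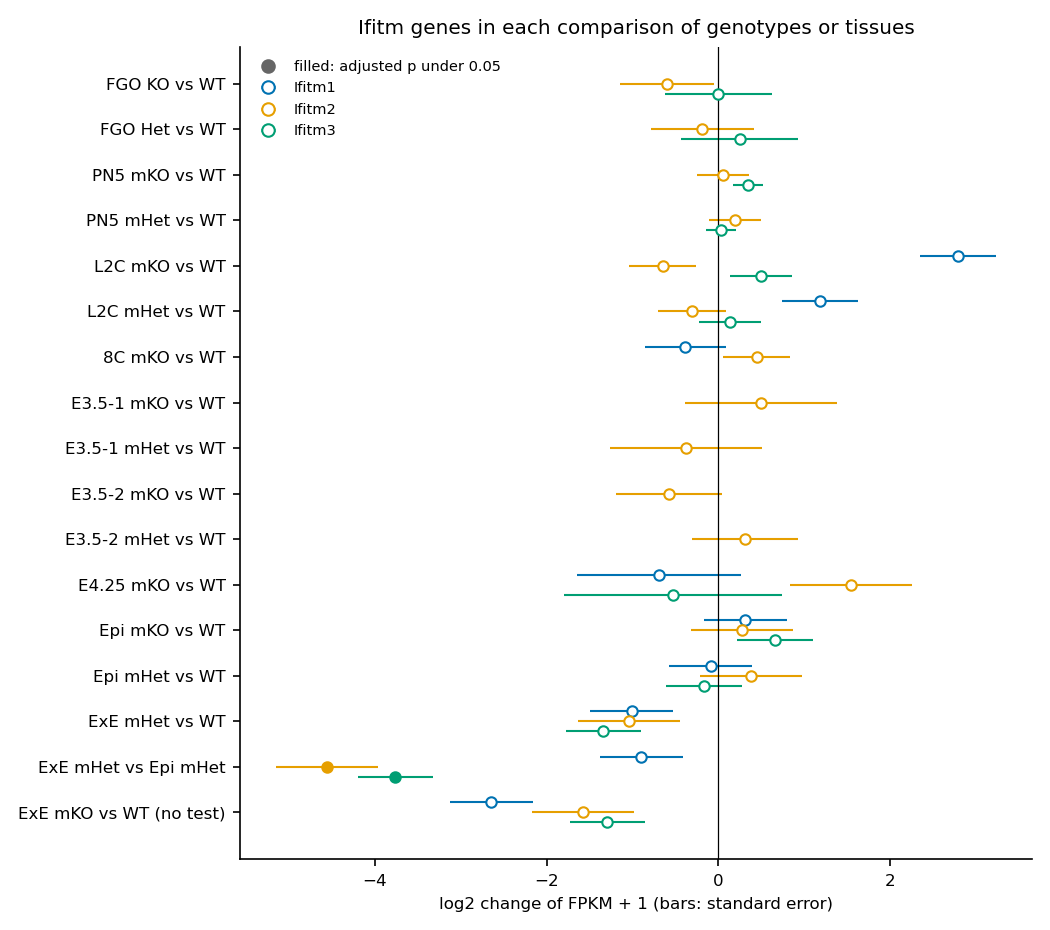
Log2 change of FPKM + 1 (x axis) for Ifitm1, Ifitm2 and Ifitm3 in each comparison (y axis), with bars for the standard error of the fit and filled points for an adjusted p under 0.05. The filled points are Ifitm2 and Ifitm3 in mHet extraembryonic ectoderm against mHet epiblast. The contrast by which the family was picked, at the bottom, carries no test.

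In E6.5 extraembryonic ectoderm, the trophoblast tissue next to the epiblast, Ifitm1 was at 19.8 and 10.4 FPKM in WT, against 7.42 and 5.95 in mHet, and 3.22 and 0.441 in mKO. The genotypes did not overlap and followed the order WT, mHet, mKO. How many of all genes did so was not counted. On the log2(FPKM + 1) scale the mKO change from WT was -2.64 (SE 0.48, n = 2 each), the seventh lowest value of 11028 genes. This is the value that led to the choice of the family. In this contrast 37.4% of all genes had both mKO libraries below both WT libraries, the median log2 change was -0.19, and 0% of genes were called.

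Ifitm2 in the same tissue was at 40.9 and 21.4 FPKM in WT, against 20.3 and 9.46 in mHet and 4.05 and 19.9 in mKO. Every mHet and mKO library was below both WT libraries, and mHet and mKO overlapped. The mKO change from WT was -1.58 (SE 0.59), and it ranged from -0.55 without mKO replicate 1 to -2.60 without mKO replicate 2. Ifitm3 was at 6.75 and 2.2 FPKM in WT, against 1.06 and 0.883 in mHet and 1.33 and 0.775 in mKO. Here too WT stood above both other genotypes, which overlapped, and the mKO change was -1.29 (SE 0.44), or -0.65 without WT replicate 1.

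The mHet libraries were set against the same WT libraries. The log2 changes were -1.01 (SE 0.48) for Ifitm1, -1.04 (SE 0.59) for Ifitm2 and -1.34 (SE 0.44) for Ifitm3, each with an adjusted p of 0.677 (limma). The unadjusted p of Ifitm3 was 0.0101. In this comparison 0% of genes were called, 20.3% had both mHet libraries below both WT libraries, and the median change of all genes was -0.20. Because the WT libraries took part in the choice of Ifitm1, its mHet value is not independent of that choice.

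Some markers of epiblast and primitive streak were also higher in WT extraembryonic ectoderm, and others were not. Of the 10 epiblast markers 8 had a lower mean in mKO than in WT and 2 a higher one. Of the 5 streak markers that entered the fit 4 were lower and 1 higher. The higher one was Eomes, which is also on the list of extraembryonic ectoderm markers. Utf1, on the epiblast list, went the other way, at 97.4 and 192 FPKM in WT and 152 and 240 in mKO, with its lowest level in WT replicate 1. It did not separate the tissues here, at 97.4 to 240 FPKM in extraembryonic ectoderm and 84.2 to 331 in epiblast. The following 3 were singled out after their values were seen. Pou5f1, a pluripotency factor, was at 18.3 and 2.36 FPKM in WT, against 1.70 and 0.149 in mHet and 0.135 and 0.480 in mKO extraembryonic ectoderm. Tdgf1, a Nodal co-receptor of the epiblast, was at 45.1 and 3.74 FPKM in WT and at most 2.14 elsewhere. T, the brachyury factor of the streak, was at 13.7 and 1.92 FPKM in WT, against 2.38 and 1.76 in mHet and 0.122 and 0.246 in mKO, with mHet and WT overlapping. WT replicate 1 was the library with the highest level of all 3 markers and of all 3 Ifitm genes. In mKO against WT, Tdgf1 was the second, Pou5f1 the eighth and T the tenth lowest of all genes.

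Set against the mean of the 6 epiblast libraries, WT replicate 1 held 15.6% of the epiblast level of Pou5f1 and 38.3% of that of Tdgf1. WT replicate 2 held 2.02% and 3.17%. The same libraries held 130% and 68.4% of the epiblast level of Ifitm1, 13.0% and 6.78% of that of Ifitm2, and 19.6% and 6.39% of that of Ifitm3. Other genes of the epiblast and streak lists varied as widely, with Utf1 at 48.0% and 94.8%, Fgf8 at 115% and 14.8% and Otx2 at 3.24% and 2.05%. The source of the Ifitm1 level in WT was not tested. T was at 950.1% and 133% of its low epiblast mean, and Mixl1, another streak factor, at 127% and 9.91%. Without WT replicate 1 the mKO change of Ifitm1 was -2.21 (SE 0.59).

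Of the 10 epiblast markers, 8 to 10 reached 1 FPKM in WT, 4 to 8 in mHet and 4 to 5 in mKO extraembryonic ectoderm, yet their summed level was 289 to 294, 234 to 289 and 233 to 335 FPKM. Utf1 and Dnmt3b made up most of that sum in all 6 libraries. The 9 streak and mesoderm markers summed to 63.6 to 113 FPKM in WT, 46.1 to 59.3 in mHet and 45.6 to 87.7 in mKO. Of them 4 to 6, 2 to 3 and 1 reached 1 FPKM. These sums include Eomes, also an extraembryonic ectoderm marker, at 42.1 to 86.7 FPKM over the 6 libraries. It was the 1 marker at 1 FPKM in mKO, where T, Mixl1, Mesp1 and Fgf8 were each under 1 FPKM. The part of these cells in the Ifitm values was not tested. In bulk tissue, fewer cells of a type and less RNA per cell cannot be told apart.

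**Figure D4:**
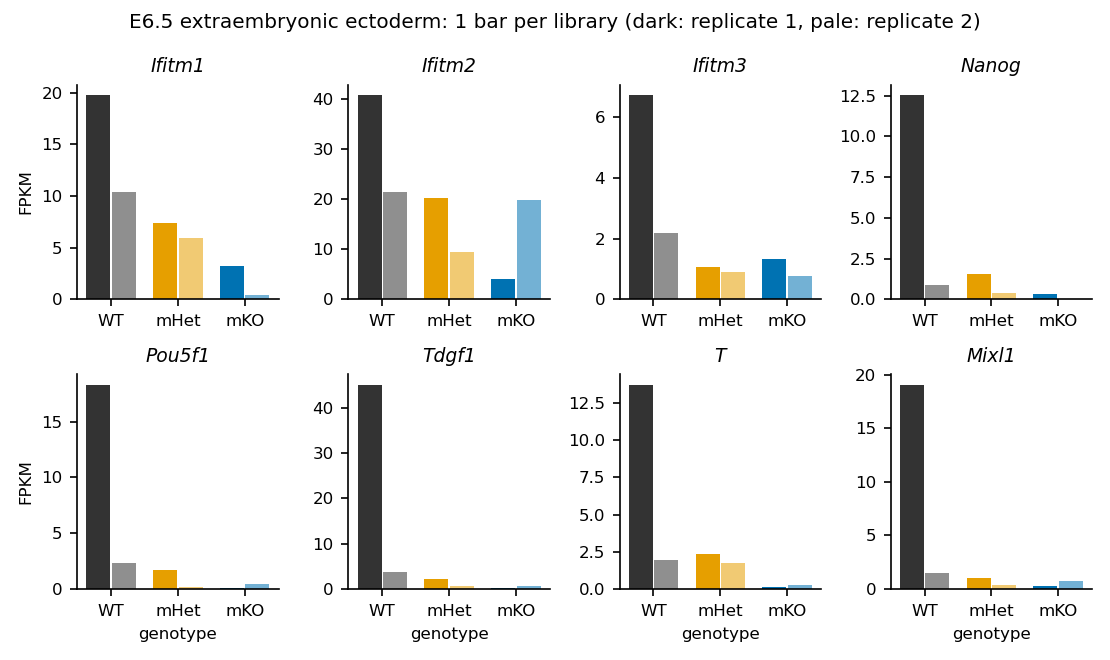
FPKM (y axis, from 0, a separate scale for each gene) of 3 Ifitm genes and 5 epiblast or streak genes in the 6 extraembryonic ectoderm libraries, grouped by genotype, with 1 bar per library. WT replicate 1 is the highest bar for all 8 genes, and Ifitm1, T and Nanog are also lower in both mKO than in both mHet libraries.

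The dissected tissue carried its own markers. All 12 extraembryonic ectoderm markers, such as Elf5, Eomes and Cdx2, reached 1 FPKM in all 6 libraries, with sums of 375 to 418 FPKM in WT, 363 to 433 in mHet and 388 to 495 in mKO, against 16.4 to 79.0 in epiblast. Markers of maternal decidua and stroma summed to at most 2.85 FPKM and those of blood, immune cells and endothelium to at most 5.22. Markers of the ectoplacental cone and giant cells summed to 31.5 to 40.8 FPKM in WT, 47.6 to 60.6 in mHet and 65.5 to 110 in mKO. Visceral endoderm markers reached 82.8 in 1 mKO library against at most 10.7 in WT and mHet. All 7 visceral endoderm markers that entered the fit had a higher mean in mKO than in WT, with a median log2 change of 1.53 beside -0.19 for all genes. The part of these cells in the Ifitm values was not tested.

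In epiblast, the tissue that forms the embryo proper, no family gene showed a genotype difference past the threshold. Ifitm1 was at 11.9 and 16.7 FPKM in WT, against 11.4 and 15.4 in mHet and 19.3 and 16.5 in mKO. WT overlapped with both other genotypes, and both mKO libraries were above both mHet libraries. The share of all genes with mKO above mHet was not counted. Ifitm2 was at 288 and 249 FPKM in WT, against 314 and 390 in mHet and 305 and 346 in mKO. Both mHet and both mKO libraries were above both WT libraries, as they were for 19.7% and 20.6% of all genes.

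Ifitm3 was at 26.3 and 32.0 FPKM in WT, against 21.0 and 31.2 in mHet and 35.4 and 60.5 in mKO epiblast. The mKO libraries were above WT, as in 20.6% of all genes, and above mHet. In mKO against WT the log2 changes were 0.31 (SE 0.48) for Ifitm1, 0.28 (SE 0.59) for Ifitm2 and 0.66 (SE 0.44) for Ifitm3, each with an adjusted p of 1 (limma), where 0.00907% of all genes were called. In mHet against WT they were -0.09 (SE 0.48), 0.38 (SE 0.59) and -0.17 (SE 0.44), again with an adjusted p of 1, where 0.0272% were called, 0.0181% as higher.

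Between the tissues Ifitm2 and Ifitm3 differed past the threshold. In the mHet libraries, which the choice of the family did not use, Ifitm2 was at 20.3 and 9.46 FPKM in extraembryonic ectoderm against 314 and 390 in epiblast. The log2 change was -4.56 (SE 0.59, n = 2 each, limma adjusted p 0.000337), which placed Ifitm2 21st from the lowest of 11028 genes. Ifitm3 was at 1.06 and 0.883 FPKM against 21.0 and 31.2, a log2 change of -3.76 (SE 0.44, adjusted p 0.000189). Both genes were lower in both extraembryonic ectoderm libraries than in both epiblast libraries, as were 26.9% of all genes (16.4% were higher in both). Ifitm1 was at 7.42 and 5.95 FPKM against 11.4 and 15.4, did not overlap either, and changed by -0.90 (SE 0.48, adjusted p 0.268). In this comparison 14.9% of genes were called, with 9.71% of all genes lower and 5.18% higher in extraembryonic ectoderm.

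The ratio of epiblast to extraembryonic ectoderm means was 8.63 in WT, against 23.7 in mHet and 27.2 in mKO for Ifitm2, and 6.5, 27.0 and 45.6 for Ifitm3. For Ifitm1 it was 0.949 in WT, against 2.00 in mHet and 9.77 in mKO. The WT and mKO ratios contain the contrast that chose the family and stand as descriptions. The difference of the mHet effect between the tissues was tested and gave -0.92 (SE 0.68) for Ifitm1, -1.42 (SE 0.84) for Ifitm2 and -1.17 (SE 0.62) for Ifitm3, each with an adjusted p of 0.998 (limma). This contrast also contains the WT extraembryonic ectoderm libraries that took part in the choice of Ifitm1. No gene was called there (0%), with 198 of 11028 at an unadjusted p under 0.05.

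Likeness of pattern was taken over the 12 E6.5 libraries of both tissues as Pearson's r of log2(FPKM + 1), among 8217 genes. Libraries of 1 tissue share most of their pattern, so these values mainly order genes by tissue. Ifitm2 was most like Gsta4, a glutathione transferase (r = 0.986, 4.49 to 215 FPKM), then Akr1b10, Nme4, 2210013O21Rik and Zfp623. Ifitm3 was most like Akap12, a kinase anchoring protein (r = 0.989), then Wasf1, Cthrc1, Otx2 and Tmem88. Ifitm1 had lower values, led by Shroom2 (r = 0.926, 1.62 to 5.22 FPKM), then Morc2a, Zfr, Ptpn9 and Igfbp3. Between family genes r was 0.95 for Ifitm2 with Ifitm3, 0.74 for Ifitm1 with Ifitm3 and 0.66 for Ifitm1 with Ifitm2.

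In late 2-cell embryos Ifitm1 had the opposite order. It was at 1.47 and 0.191 FPKM in WT, against 4.21 and 1.92 in mHet and 9.85 and 11.9 in mKO. No genotypes overlapped, and the mKO mean was 13.1 times the WT mean. The share of all genes with the genotypes apart in this order was not counted. The log2 change of 2.79 (SE 0.44) was the highest of the 10322 genes tested, and the gene was sixth by p. Its unadjusted p was 0.000187 and its adjusted p 0.303, so it did not pass the threshold (limma, n = 2 each). Libraries of the same number deviated together at this stage, with r of 0.213 to 0.257, values that are not independent with 2 libraries a group. With the replicate number as a block the limma adjusted p was 0.0365 (SE 0.38). Without the block 0.00969% of genes were called, and the share with it was not counted. In 13.7% of genes both mKO libraries were above both WT libraries.

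The mHet change of Ifitm1 was 1.19 (SE 0.44, unadjusted p 0.0270, adjusted p 1.00), where 0% of genes were called and 16.4% had both mHet libraries above WT. The mKO and mHet comparisons share their WT libraries. Over the alternatives for mKO against WT the adjusted p ranged from 0.0365 to 0.617 and the log2 change from 2.26 to 4.02.

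**Figure D5:**
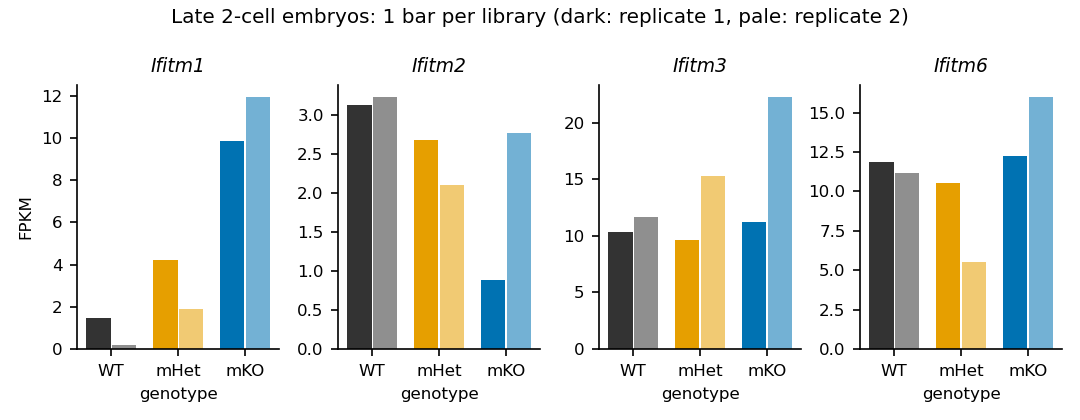
FPKM (y axis, from 0, a separate scale for each gene) of Ifitm1, Ifitm2, Ifitm3 and Ifitm6 in the 6 late 2-cell libraries, grouped by genotype, with 1 bar per library. Ifitm1 is lowest in WT (1.47 and 0.191) and highest in mKO (9.85 and 11.9) with mHet between and no overlap. Genotypes overlap in Ifitm3, and in Ifitm6 the order is mHet, WT, mKO without overlap.

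The other members did not share this pattern. Ifitm2 was at 3.14 and 3.23 FPKM in WT, against 2.68 and 2.11 in mHet and 0.889 and 2.77 in mKO. All 4 mHet and mKO libraries were below WT, as in 14% and 23.3% of all genes, and the mKO change was -0.65 (SE 0.39, limma adjusted p 0.786). Ifitm3 was at 10.3 and 11.7 FPKM in WT, against 9.66 and 15.3 in mHet and 11.2 and 22.3 in mKO, where the genotypes overlapped and the mKO change was 0.49 (SE 0.36, adjusted p 0.852). Ifitm6 was at 11.9 and 11.2 FPKM in WT, with mHet below (10.6 and 5.55) and mKO above (12.3 and 16.0), and its mKO change was 0.26 (SE 0.33, adjusted p 0.930).

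The genes around the cluster were read by gene order in the RefSeq table, 6 on each side. Those tested in mKO against WT late 2-cell embryos, Ric8a, Sirt3, Psmd13, Sigirr, Ano9, Ptdss2 and Rnh1, changed by -0.26 to 0.26, with adjusted p of 0.936 or more (limma). In extraembryonic ectoderm the mKO changes of the neighbours tested lay between -0.69 (Psmd13) and 0.51 (Sigirr). In mHet against WT extraembryonic ectoderm, where Ifitm1 changed by -1.01, Psmd13 changed by -1.11 and Ric8a by -0.71 (limma adjusted p 0.677 and 0.678).

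In oocytes the levels went with the library number. Ifitm3 was at 16.8 and 57.9 FPKM in WT, against 23.9 and 58.3 in Het and 19.0, 24.1 and 66.4 in KO. In order of library number, a new series was taken to start where a WT library followed another genotype. This inferred split gave 4 libraries with lower and 3 with higher numbers, at 16.8 to 24.1 and at 57.9 to 66.4 FPKM. Within each of these series the KO libraries lay above the WT library, as in 19.8% of all genes. Pooled, the KO change was -0.003 (SE 0.62) for Ifitm3 and -0.60 (SE 0.55) for Ifitm2, both with an adjusted p of 1 (limma), where 0.0102% of genes were called. With the series as a term the Ifitm3 change was 0.25. The Het changes were 0.25 (SE 0.68) for Ifitm3 and -0.18 (SE 0.60) for Ifitm2, with an adjusted p of 1.00, where 0% were called.

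Ifitm2 was at 1.11 and 1.91 FPKM in WT, against 0.571 and 2.02 in Het and 0.297, 0.391 and 1.42 in KO oocytes. The genotypes overlapped over all libraries, but within each series the KO libraries were below the WT library, as in 7.55% of all genes. Ifitm6 split in the same way, at 112 to 146 and at 252 to 276 FPKM. Ifitm1 was detected in 1 Het library alone, at 0.149 FPKM.

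In 1-cell embryos Ifitm3 was at 80.4 and 90.6 FPKM in WT, against 82.5 and 92.4 in mHet and 110 and 108 in mKO. The mKO libraries were above WT, as in 8.81% of all genes. The change was 0.35 (SE 0.18, limma adjusted p 1.00), where 0.0116% of genes were called. Ifitm2 was at 0.567 and 0.991 FPKM in WT, against 1.52 and 0.615 in mHet and 1.00 and 0.670 in mKO and overlapped throughout, with changes of 0.05 (SE 0.30) in mKO and 0.19 (SE 0.30) in mHet. The mHet change of Ifitm3 was 0.03 (SE 0.18), and 0% of genes were called in mHet.

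At the 8-cell stage Ifitm2 was at 50.0 and 34.4 FPKM in WT, against 24.4 in mHet and 65.1, 36.6 and 77.0 in mKO. The mKO change was 0.44 (SE 0.39, limma adjusted p 0.999), where 0.012% of genes were called. Ifitm1 was at 8.34 and 2.03 FPKM in WT, against 0.857 in mHet and 2.19, 4.92 and 2.57 in mKO, a change of -0.39 (SE 0.47, adjusted p 0.999). WT and mKO overlapped in both genes, and the single mHet library, which was not tested, was below both WT libraries. The share of all genes like that in the mHet library was not counted. Ifitm3 was at 1.61 and 0.520, 0.947, and 0.620, 0.395 and 0.401 FPKM in WT, mHet and mKO, and did not enter the tests.

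At E3.5 only Ifitm2 was high enough to test. In the first set Y-linked transcripts summed to 45.0 and 59.7 FPKM in WT and 43.5 and 84.7 in mHet, against 0.152 and 0.101 in mKO. Sex and genotype therefore cannot be told apart in its mKO comparison. Ifitm2 was there at 20.1 and 129 FPKM in WT, against 27.7 and 55.6 in mHet and 74.1 and 71.8 in mKO. The WT libraries spanned all others, and the changes were 0.50 (SE 0.89, limma adjusted p 0.949) in mKO and -0.38 (SE 0.89, adjusted p 0.824) in mHet, where 0.0407% (0.0203% higher and 0.0203% lower) and 0% of genes were called. In the second set the 5 WT libraries were at 35.6, 15.8, 11.8, 12.6 and 64.8 FPKM, the mHet libraries at 19.3, 21.7, 19.7, 44.0 and 46.8, and the mKO libraries at 11.2, 3.49, 24.6, 11.3 and 54.5. All 3 genotypes overlapped. The changes were -0.57 (SE 0.62, adjusted p 1) in mKO and 0.31 (SE 0.62, adjusted p 0.999) in mHet, where 0.0539% and 0% were called.

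The spread within genotypes in the second set went with library content. Over its 15 libraries Ifitm2 had r = -0.94 with the Rn45s share and r = 0.94 with the number of genes at 1 FPKM. The library with the least Ifitm2, at 3.49 FPKM, had 69.5% of its summed FPKM in Rn45s. Among the genes most like Ifitm2 there were Cox5a and Cox4i1, subunits of the respiratory chain, Mrps14 and 2700094K13Rik (r = 0.982 to 0.985).

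At E4.25 one library decided the WT values of 2 family genes. Ifitm3 was at 0, 0, 193 and 0.636 FPKM in WT, against 3.44 in mHet and 2.28, 10.4, 0.954 and 0 in mKO. Ifitm1 was at 0, 0.501, 58.0 and 0 FPKM in WT, against 1.38 in mHet and 2.21, 1.42, 0.379 and 0.213 in mKO. The high value of both is WT replicate 3. There Ifitm3 ranked 11th of 19337 genes.

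That library did not look like the others of its stage. It held 765 FPKM over 12 genes of motile cilia, among them Foxj1, the master factor of ciliated cells, at 50.9, Ccdc153 at 113 and Dynlrb2 at 149, where the other 8 samples summed to 0.624 to 6.30. It also held 222 FPKM of Lcn2 and 80.6 of Alox15, each under 1 elsewhere. These genes were chosen after their values were seen. Its epiblast, inner cell mass and trophectoderm markers summed to 4.92, 16.7 and 35.2 FPKM, against 33.3 to 131, 19.8 to 116 and 128 to 1023 in the other samples. Interferon-stimulated effectors summed to 234 FPKM, against 28.6 to 145. Decidua and stroma markers summed to 1.22 FPKM, against 0 to 1.09, and blood, immune and endothelial markers to 20.7, against 1.22 to 7.19. The part of other cells in its Ifitm values was not tested.

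With all libraries the E4.25 mKO changes were -0.69 (SE 0.95, limma adjusted p 0.604) for Ifitm1 and -0.53 (SE 1.27, adjusted p 0.774) for Ifitm3. Without WT replicate 3 they were 0.73 (adjusted p 0.215) and 1.31 (adjusted p 0.145). Ifitm2 was at 1.35, 3.78, 15.9 and 3.46 FPKM in WT, against 8.26 in mHet and 6.78, 45.1, 6.23 and 22.8 in mKO. The mKO change was 1.55 (SE 0.71, adjusted p 0.132), and without WT replicate 3 it was 2.10 (adjusted p 0.0406). The median of all genes in this comparison was 0.74 and 14.6% of genes were called, or 11.6% without WT replicate 3. With median ratio scaling, which moved that median to 0.10 and the share of genes called to 0.453%, the Ifitm2 change was 0.61 (adjusted p 0.733).

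The interferon pathway, of which the Ifitm genes are targets, was read from lists of 8 ligands, 26 receptors and signalling genes and 45 stimulated effectors. No ligand passed the filter in any table, and at E6.5 their summed level was at most 0.106 FPKM. In late 2-cell embryos 20 of 45 effectors were tested in mKO against WT, with 10 higher, 10 lower and 0 past the threshold (limma). At an unadjusted p under 0.05 were 4 higher and 1 lower, beside 330 higher and 450 lower of all 10322 genes. The median change of the effectors was 0.05 against -0.07 for all genes. The most abundant were B2m, the class I light chain, and Parp12. Of 20 signalling genes 11 were higher and 9 lower, with 0 past the threshold, 0 higher and 1 lower at an unadjusted p under 0.05.

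In extraembryonic ectoderm 20 effectors were tested, and 5 were higher and 15 lower in both mKO and mHet against WT, with a median of -0.31 and -0.24 beside -0.19 and -0.20 for all genes. Their summed levels overlapped between genotypes, at 211 to 240 FPKM in WT, 190 to 265 in mHet and 211 to 271 in mKO. In mKO epiblast 15 were higher and 5 lower, with a median of 0.27 against 0.005 for all genes. None passed the threshold in mHet extraembryonic ectoderm or mKO epiblast (limma). At an unadjusted p under 0.05 were 2 and 4 effectors, beside 650 and 490 of all 11028 genes. The 2 most abundant at E6.5 were Bst2, a membrane tether of viral particles, and Ifi30, a lysosomal reductase.

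Between the mHet tissues 4 of the 20 effectors passed the threshold. Ifit2 (log2 change -1.26), Igtp (-1.25) and Psmb8 (-1.36) were lower in extraembryonic ectoderm and Ifi35 (2.32) was higher, beside 14.9% of all genes called (limma, adjusted p at most 0.0107). Of 16 signalling genes 1 passed, Irf2, a factor that can repress interferon targets, which was higher by 2.24. At E4.25 in mKO 3 of 17 signalling genes were called as higher, Irf3 (1.44), Irf9 (1.37) and Tbk1 (1.36), beside 14.3% of all genes called as higher. With median ratio scaling 0 of 16 passed, beside 0.432% of all genes, and with Rn45s removed 0 of 17, beside 2.17%. Without WT replicate 3 there were 2 of 15, Irf3 and Irf9, beside 11.3%.

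The remaining lists follow the roles of the family in trophoblast and in germ cells. Of the 8 fusion genes, 4 were tested at E6.5, and 2 were higher and 2 lower in mKO against WT extraembryonic ectoderm, with Slc1a5 (0.42) and Ly6e (-0.26) the most abundant. Of the 10 early germ cell genes 7 were tested. In mHet extraembryonic ectoderm against epiblast 3 of this list were called as higher, Tfap2c (4.56), Elf3 (3.00) and Tfcp2l1 (1.76). Another 3 were called as lower, Dppa3 (-1.98), Kit (-1.87) and Dnd1 (-1.99). All had a limma adjusted p of at most 0.0141, beside 5.18% of all genes called as higher and 9.71% as lower. Tfap2c is also on the list of extraembryonic ectoderm markers, of which 11 of 12 were called as higher there, so its call is not particular to germ cell genes. In mKO epiblast all 7 germ cell genes tested were higher than in WT, with a median of 0.35 beside 0.005 for all genes. This was not particular to that list. Of the 12 extraembryonic ectoderm markers 11 were higher there, with a median of 0.60, and of the 10 epiblast markers 8 were lower, with a median of -0.38. The share of all genes that were higher was not counted. Of the 7 germ cell genes 0 passed the threshold and 1 had an unadjusted p under 0.05 (limma), beside 490 of 11028 genes.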

How the data were processed

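FPKM per gene and library were deposited by the authors in 8 tables, per the file headers. Smart-seq2 libraries from lysed oocytes or embryos were read on the DNBSEQ-T7 system, per the labels' protocols. HISAT2 2.2.1, HTSeq 0.6.0, Trim Galore 0.4.2 and, with no role stated, the builds hg19 and mm9 appear in the list of tools, per the submitters' processing notes. The sources used here name neither the tool that made FPKM nor the annotation, strand use or handling of multi-mapping reads. The value of 1 read could not be recovered, since no single ratio between libraries held for more than 3.63% of genes. Depth is therefore unknown, and no counting interval is given.

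Of 68 libraries 67 were used, since the E4.25 mHet libraries are identical in each of 19337 genes and count as 1 sample. Names turned into dates (27, 27 and 25 in 3 tables) were dropped. Epiblast columns carry numbers unlike those of the titles and were matched to their group alone.

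Each table was fitted alone with limma 3.58.1 in R 4.3.3 (group means, eBayes with trend) on log2(FPKM + 1), over genes that reached 1 FPKM in 2 or more libraries. All genotypes of a table were fitted together, at E6.5 both tissues. P-values are two-sided, adjusted by Benjamini and Hochberg over all genes kept, with a threshold of 0.05. Apart from the second of the 2 identical E4.25 mHet columns, 0 of the columns with values per sample were left unused. The fit was tested on simulated tables. Alternatives were a pseudocount of 0.1, no filter, median ratio scaling, Rn45s removed, the 2 groups alone and a replicate block. A sex term from Y-linked genes, the library series inferred from library numbers and each library left out were also run.

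Libraries of the same number deviated together, with every correlation above 0.1, in late 2-cell embryos (0.213 to 0.257), 1-cell embryos (0.515 to 0.557) and the first E3.5 set (0.155 to 0.571). With 2 libraries a group these 6 values are not independent, and the labels do not say what a number marks.

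Members and lists were chosen with earlier results of these data known. Named are all members in every library, other Ifitm genes, 6 neighbours on each side, the 5 genes most like each member (1 of them is not reported here), and of each list the genes past the threshold or else the 2 most abundant. Markers of epiblast, streak and cilia are named beyond that rule, after their values were seen. Promoters are from RefSeq (GRCm38.p6).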

Additional observations from a re-analysis of the deposited data

Results flagged for a closer look

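In E4.25 WT replicate 3 the levels of Ifitm1 (58.0 FPKM), Ifitm2 (15.9 FPKM) and Ifitm3 (193 FPKM) lay farther from the other 3 WT libraries than Dixon's critical value allows. Chance flags about 1 in 20 groups of normally distributed values, a rate that need not hold for FPKM with zeros. These 3 of 9 groups tested come from 1 library, the one with motile cilia genes. Its Ifitm2 level lay within the range of the mKO libraries (6.23 to 45.1 FPKM).

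Ratios of means to WT, in groups that did not overlap with WT, pointed in opposite directions between stages or tissues. Of all genes, 8.81% lay above WT in 1-cell mKO, 13.7% and 16.4% in late 2-cell mKO and mHet, and 20.6% and 19.7% in epiblast mKO and mHet. Below WT were 23.3% and 14% in late 2-cell mKO and mHet, and 37.4% and 20.3% in extraembryonic ectoderm mKO and mHet. The share of all genes with opposite directions was not counted. For Ifitm1 the ratio was 13.1 in late 2-cell mKO and 0.121 in extraembryonic ectoderm mKO, and 3.70 and 0.443 in mHet. The value of 0.121 is the contrast by which the family was picked, and 0.443 shares its WT libraries, so neither is independent of that choice. For Ifitm2 it was 1.21 in epiblast mKO, 0.575 in late 2-cell mKO and 0.384 in extraembryonic ectoderm mKO, and 1.31, 0.751 and 0.477 in mHet. For Ifitm3 it was 1.27 in 1-cell mKO and 1.65 in epiblast mKO, but 0.235 in extraembryonic ectoderm mKO. The difference was not tested for these ratios, except for the mHet effect between the E6.5 tissues, where no member passed the threshold (limma adjusted p 0.998).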

How the results depend on the processing

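Of 671 alternative values over 59 results, 640 counted as unchanged. For tested changes this means the same direction and side of the threshold, and for counts of genes an equal or close count. For the untested mKO changes in extraembryonic ectoderm it means the same direction and a shift smaller than the SD within groups. The counts of members repeat the results of the single genes. With the replicate block the late 2-cell mKO comparison had 1 member past the threshold in place of 0 (Ifitm1, limma adjusted p 0.0365). The share of all genes past it with that block was not counted, and the block changed no other call. No paired analysis was possible for epiblast and for the tissue comparisons because the epiblast columns carry numbers that match no title. Leaving out 1 library gave 0 to 1 members at E4.25 (1 without WT replicate 3, Ifitm2) and the reported counts elsewhere. The E4.25 count of signalling genes in mKO was 3 as deposited, 0 with median ratio scaling, 0 with Rn45s removed and 2 without WT replicate 3, alternatives chosen after seeing the data. The tissue difference of Ifitm2 and Ifitm3 kept an adjusted p of at most 0.0137 under all 10 alternatives each.

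Direction turned in 25 values of 13 results, none of them past the threshold. Ifitm3 in KO oocytes was 0.043 with median ratio scaling and 0.25 with the library series as a term. At E4.25 Ifitm1 and Ifitm3 were 0.15 and 0.22 with a pseudocount of 0.1, and Ifitm3 in mHet epiblast was 0.0022 with a sex term. Leaving out 1 library gave ranges that cross 0. In oocytes they were -0.87 to 0.86 (Ifitm3, KO), -0.62 to 1.11 (Ifitm3, Het) and -0.66 to 0.29 (Ifitm2, Het). In 1-cell embryos they were -0.12 to 0.22 (Ifitm2, mKO) and -0.053 to 0.12 (Ifitm3, mHet). They were -0.17 to 0.44 for late 2-cell Ifitm3 in mHet and -1.20 to 0.43 for 8-cell Ifitm1 in mKO. In the first E3.5 set Ifitm2 spanned -0.81 to 1.81 in mKO and -1.69 to 0.93 in mHet. At E4.25 Ifitm1 spanned -1.23 to 0.73 and Ifitm3 -1.22 to 1.31, each turned by WT replicate 3. In mHet epiblast Ifitm3 spanned -0.44 to 0.11 and Ifitm1 -0.32 to 0.14. The cause was not tested.

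Sex and library series were not run where they are constant or coincide with genotype. FPKM without depth limits what can be said of low values, and pairs of libraries limit all tests.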
